A study of Mus musculus with 3 samples.

Results

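The interleukin 1 family, Il6 and Tnf were followed across mouse RNA from FULA 1 cells, urethane lung and saline lung, with 1 array per group. The members were chosen by name, as the rows of the deposited table whose platform annotation gives Il1a, Il1b, Il18, Il33, Il1rn, Il1r1, Il1rap, Il1rl1, Il6 or Tnf. Of these 10 genes 9 had a named row, on 11 probe sets, among 22180 genes in all; Il1rl1, the receptor for interleukin 33, was not analysed here. FULA 1 is a mouse lung adenocarcinoma line, grown in DMEM with 10% fetal bovine serum. The urethane lung came from FVB mice, an inbred strain, 1 week after an intraperitoneal injection of urethane, a carcinogen that gives lung tumours in mice. The saline lung came from FVB mice injected with saline. The sources used here do not give the age or number of the mice behind a lung array, nor how long after the injection the saline lung was collected.

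Interleukin 1 alpha and beta are alarm cytokines. Both bind the receptor Il1r1, which then recruits the accessory chain Il1rap and signals through Myd88 and the IRAK kinases to NF-kB and AP-1, and Il1rn encodes a secreted antagonist that occupies the same receptor. Interleukin 1 beta and interleukin 18 are made as inactive precursors that caspase 1 cleaves inside inflammasomes, mostly in myeloid cells, whereas interleukin 33 is stored in the nucleus of epithelial and stromal cells and is released when they are damaged; in mouse lung, alveolar type II cells are a known source. Tnf and Il6 are cytokines that the same pathway induces, and Tnf in turn activates NF-kB through its own receptors.

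The sequences before the transcript starts of the members that differed most are shown first, with that of Il6 because its NF-kB site is well known. RefSeq starts were matched for 10 of 10 members, with 15 start windows of 250 bases each, in build GRCm38.p6. Capitals mark matches, on either strand, to the TATA box (TATAAA), to the AP-1 motif (TGANTCA) or to the NF-kB consensus. Il33 has a pair of starts; the upstream one is at chr19:29924863-29925112 and the downstream one at chr19:29945540-29945789, both on the plus strand. The downstream start of Il1r1 is at chr1:40266336-40266585 on the plus strand. Il1b lies at chr2:129371140-129371389 on the minus strand, Tnf at chr17:35202008-35202257 on the minus strand and Il6 at chr5:30012864-30013113 on the plus strand.
Il33 upstream start: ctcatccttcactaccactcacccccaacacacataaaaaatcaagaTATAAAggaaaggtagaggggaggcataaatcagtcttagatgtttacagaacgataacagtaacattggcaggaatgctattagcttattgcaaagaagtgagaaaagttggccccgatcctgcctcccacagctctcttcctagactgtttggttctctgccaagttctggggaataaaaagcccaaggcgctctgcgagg
Il33 downstream start: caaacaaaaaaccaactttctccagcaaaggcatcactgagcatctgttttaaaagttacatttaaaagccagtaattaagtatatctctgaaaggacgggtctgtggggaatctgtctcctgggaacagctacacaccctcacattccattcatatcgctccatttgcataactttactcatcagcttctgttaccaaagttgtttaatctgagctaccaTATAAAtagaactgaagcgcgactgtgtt
Il1r1 downstream start: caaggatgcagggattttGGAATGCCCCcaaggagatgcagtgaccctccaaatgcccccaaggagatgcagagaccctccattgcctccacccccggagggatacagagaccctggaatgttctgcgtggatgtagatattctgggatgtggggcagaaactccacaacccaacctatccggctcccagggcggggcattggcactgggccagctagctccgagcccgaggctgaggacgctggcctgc
Il1b: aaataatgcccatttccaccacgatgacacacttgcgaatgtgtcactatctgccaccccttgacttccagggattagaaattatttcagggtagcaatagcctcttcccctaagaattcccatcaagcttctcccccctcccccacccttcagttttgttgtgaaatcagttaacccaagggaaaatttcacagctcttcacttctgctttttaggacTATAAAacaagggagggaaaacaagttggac
Tnf: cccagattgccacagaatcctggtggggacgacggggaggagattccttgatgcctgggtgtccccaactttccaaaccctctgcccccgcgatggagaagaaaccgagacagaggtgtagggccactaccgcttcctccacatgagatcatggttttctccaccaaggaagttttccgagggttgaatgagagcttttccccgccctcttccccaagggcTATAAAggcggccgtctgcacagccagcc
Il6: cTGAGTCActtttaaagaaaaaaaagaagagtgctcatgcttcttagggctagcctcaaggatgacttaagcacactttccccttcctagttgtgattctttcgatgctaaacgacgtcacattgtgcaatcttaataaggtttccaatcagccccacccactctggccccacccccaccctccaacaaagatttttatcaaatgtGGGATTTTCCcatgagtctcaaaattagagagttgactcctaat

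A TATA box match began 31 bases before the start of Il1b, 32 before that of Il1a and 29 before those of Tnf and the downstream start of Il33. A match to TATAAA at any position was found in 6 of the 15 windows, of 5 members, against 12.4% of all 32851 start windows of the table. Those of Il18, on the minus strand, and of the upstream start of Il33 began at -175 and -203 from the start. They lie far from the positions above and are matches to the string only. The NF-kB consensus matched in 2 of the 15 windows, those of Il6 and the downstream start of Il1r1, against 7.25% of all windows. AP-1 matched in 3, of Il1a, Il1rn and Il6, against 6.75% of all windows. The windows are short, so a motif that is not in them may lie elsewhere, and the array measured no binding.

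Levels are given in log2 units after quantile normalization, which gives the 3 arrays the same distribution of values, and as a percentile rank among the 41345 probe sets of the array, which no monotone scaling of an array changes. This was needed because the deposited columns had medians of 4.96 on FULA 1, 1.22 on urethane lung and 0.08 on saline lung. As a mark of background, the 95th percentile of 1105 olfactory receptor genes was taken on each array. Probe sets differ in how strongly they respond, so signals are compared between arrays for the same gene and not between genes. The mark lay at 1.96 on FULA 1, 2.44 on urethane lung and 2.46 on saline lung, with percentile ranks of 46.5, 59.2 and 59.7 on the arrays in that order. With 1 array per group there is no replicate spread and no test, so a difference here is between arrays and not shown to be between conditions. In the lungs, fewer cells of a type and less RNA per cell cannot be told apart. Set against the labels, the lungs carried lung genes, and the epithelial genes were mixed in FULA 1. The club cell gene Scgb1a1 was at 1.27 on FULA 1, 11.88 on urethane lung and 11.85 on saline lung, and the keratin gene Krt8 at 10.27, 5.60 and 5.43. Krt18, another keratin gene, was at 6.42, 3.81 and 3.53, and the cadherin gene Cdh1 at 5.46, 3.90 and 3.40. The epithelial adhesion gene Epcam went the other way at 3.31, 4.59 and 3.82, and so did the tight junction gene Cldn7 at 2.56, 4.46 and 4.79. The pan-leukocyte gene Ptprc was at 1.62 on FULA 1, below the mark, 3.35 on urethane lung and 3.06 on saline lung.

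Il33 and Il1r1 were higher in FULA 1 cells than in either lung. Il1b and Tnf, which leukocytes mainly make, stood above the background mark in both lungs and below or at it in FULA 1, while Il6 lay below the mark everywhere. In all, 5 of the 9 measured members were at or above the mark on FULA 1, 5 on urethane lung and 4 on saline lung, and 3 (Il18, Il1rap and Il6) were below it on all 3 arrays. Of all genes 58.2% reached the mark on FULA 1, 48.9% on urethane lung and 49.5% on saline lung, so the member counts were near those shares.

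**Figure D1:**
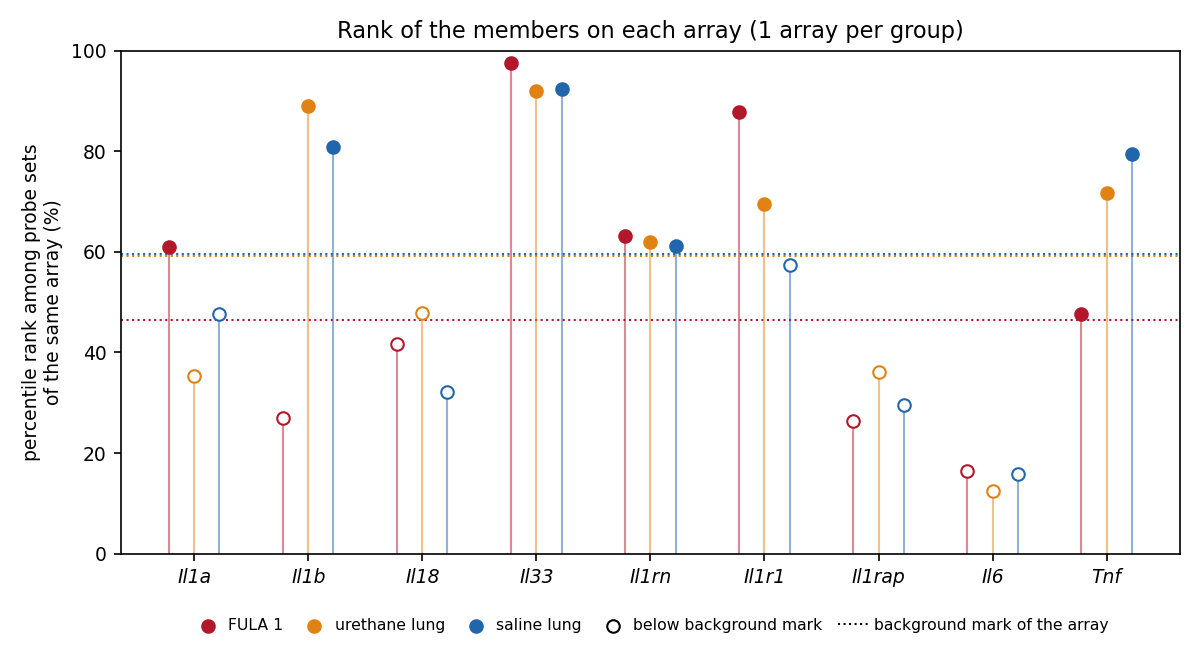
Percentile rank (%) of each measured member among the probe sets of its array, for FULA 1, urethane lung and saline lung; filled points are at or above the background mark of the array and open points below it, dotted lines give the marks, and Il1rap is the mean of 3 probe sets. Il33 ranks at 97.5 on FULA 1, and Il1b at 26.9 there against 89.0 on urethane lung and 80.9 on saline lung.

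Among the ligands, Il33 was at 7.06 on FULA 1, 5.30 on urethane lung and 5.39 on saline lung, with percentile ranks of 97.5, 92.1 and 92.4. FULA 1 stood above both lungs, and the lungs were close to each other. The difference was 1.67 (log2) between FULA 1 and saline lung, a ratio of 3.18, and 1.76 between FULA 1 and urethane lung, a ratio of 3.38; it was -0.09 between urethane lung and saline lung. All values of Il33 lay above the mark, and each was held by 1 probe set alone. Among 13590 genes past the floor in the comparison of FULA 1 with saline lung, 9.99% were at least as far above it. The floor is the median of all gene values, 2.37, which the higher of the values compared had to reach.

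Il1b had the opposite order. It was at 1.45 on FULA 1, 4.75 on urethane lung and 3.80 on saline lung, with percentile ranks of 26.9, 89.0 and 80.9. FULA 1 lay below the mark, both lungs lay above it, and the urethane lung was the highest. The difference of FULA 1 from urethane lung was -3.29 and that from saline lung -2.34; with the mark in place of the FULA 1 value, Il1b was lower in FULA 1 by at least 2.78 (6.89-fold) than in urethane lung and by at least 1.84 (3.57-fold) than in saline lung. Urethane lung exceeded saline lung by 0.95, a ratio of 1.93, just under the 2-fold rule used here, and 3.99% of the 12519 genes past the floor were at least as far above saline lung. The value of Il1b was shared by 105 probe sets on urethane lung and by 41 on saline lung, so it is coarse; the next values in use on the urethane array were 4.73 and 4.76, and those on the saline array 3.79 and 3.80.

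Il1a, whose product is active without cleavage, was at 2.54 on FULA 1, 1.66 on urethane lung and 2.004 on saline lung, with percentile ranks of 61.1, 35.3 and 47.6. It lay above the mark on FULA 1 and below it in both lungs. The FULA 1 level was higher by 0.88 than that of urethane lung and by 0.54 than that of saline lung, but with the mark as the lung value by at least only 0.10 and 0.08 in the same order. Il1a and Il1b, which are neighbours on chromosome 2, therefore stood in opposite order between FULA 1 and the lungs, though the excess of Il1a hardly cleared the mark.

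Il18 was at 1.83 on FULA 1, 2.01 on urethane lung and 1.59 on saline lung, below the mark on each array, and is given no size. The antagonist gene Il1rn was at 2.61, 2.58 and 2.54, just above each mark, with percentile ranks of 63.1, 62.0 and 61.1. Its 3 values were within 0.07 of each other, although on the urethane array the value was shared by 639 probe sets. The ranks of Il1rn thus stayed close where those of both agonist genes differed between FULA 1 and the lungs.

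Il1r1, the signalling receptor for both agonists, was at 4.59 on FULA 1, 2.96 on urethane lung and 2.36 on saline lung, with percentile ranks of 87.8, 69.5 and 57.4. FULA 1 was the highest, and the saline lung lay below the mark. The difference of FULA 1 from saline lung was 2.23 (at least 2.12, or 4.35-fold), and that from urethane lung 1.62, a ratio of 3.08. Between urethane lung and saline lung it was 0.61 (at least 0.50). The saline value was shared by 303 probe sets, so it only places the gene near background there. In the comparison of FULA 1 with saline lung, 4.58% of the genes that passed the floor exceeded it by as much as Il1r1 or more.

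Il1rap, the accessory chain, was read by 3 probe sets that did not agree in level. The highest probe set was at 2.39 on FULA 1, 2.65 on urethane lung and 2.32 on saline lung, above the mark on FULA 1 and urethane lung. The others lay between 0.76 and 1.40 on all arrays. The mean of the 3 was at 1.41 on FULA 1, 1.76 on urethane lung and 1.49 on saline lung, below each mark, and no size is given.

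Il6 was at 1.15 on FULA 1, 1.00 on urethane lung and 1.12 on saline lung, with percentile ranks of 16.5, 12.4 and 15.8. Il6 RNA was thus not told from background in any of the 3 samples, which bounds the signal of its probe set rather than showing that no cell made it. Tnf was at 2.01 on FULA 1, 3.11 on urethane lung and 3.69 on saline lung, with percentile ranks of 47.7, 71.8 and 79.6. It was at the mark on FULA 1 and above it in both lungs, and the saline lung was the highest. The FULA 1 value was shared by 43 probe sets. The difference of FULA 1 from saline lung was -1.69, or 3.22-fold lower, and that from urethane lung -1.10, or 2.15-fold lower. The olfactory receptor gene Olfr527 had nearly the same levels, at 2.04 on FULA 1, 3.06 on urethane lung and 3.67 on saline lung. A gene of the class that sets the mark thus showed the same profile as Tnf. Urethane lung differed from saline lung by -0.58, so Tnf and Il1b stood on opposite sides of 0 in the comparison of the lungs.

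**Figure D2:**
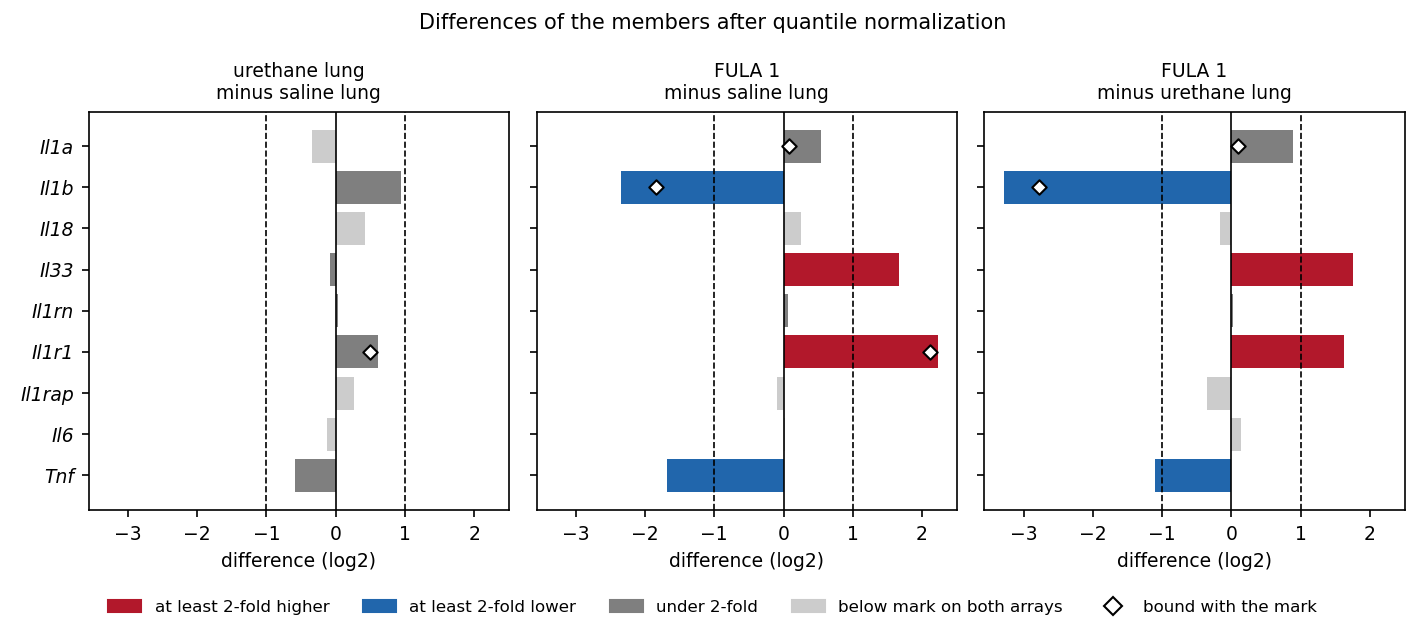
Differences (log2) of the 9 measured members after quantile normalization in the 3 comparisons; dashed lines mark 2-fold, pale bars are genes below the mark on both arrays, and diamonds give the size with the mark in place of a value below it. Il33 and Il1r1 lie above 1, and Il1b and Tnf below -1, in both comparisons of FULA 1, whereas no member reaches 1 or -1 between the lungs; with the values as deposited every FULA 1 bar would lie above 0.

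By the 2-fold rule 0 of the 9 members, 5 of them past the floor, were called between urethane lung and saline lung, where 4.58% of 12519 genes were (3.27% higher and 1.31% lower). Between FULA 1 and saline lung 4 were called, of 6 past the floor, where 44.6% of 13590 genes were (22.6% higher and 22% lower). Between FULA 1 and urethane lung the same 4 genes were called, where 41.5% of 13264 genes were (22.1% higher and 19.5% lower). In each comparison of FULA 1, Il33 and Il1r1 were higher and Il1b and Tnf lower. These comparisons share the FULA 1 array, and 4 of 6 genes is not far from the background share. With aligned medians Tnf was at -0.86 against urethane lung and lost its call, while Il1a gained one there at 1.08, or 1.52 with the quantiles of FULA 1 as the target. The directions of the 4 held when the array medians were aligned, when the arrays were set to the quantiles of FULA 1 and when a lowess curve was subtracted, but Il1b and Tnf were higher in FULA 1 in the values as deposited, where the median of all genes was 4.80 higher in FULA 1 than in saline lung and 3.69 higher than in urethane lung. On that scale 21703 of the 22180 genes passed the rule as higher in FULA 1 than in saline lung, so the list values below are those after normalization, and a sign that turned or a call that was lost with aligned medians is given beside it.

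Among cells that are known to make Il1b and Tnf, markers of neutrophils and of monocytes and interstitial macrophages were mostly at background in FULA 1. Those of alveolar macrophages were mixed. Of 10 neutrophil markers 2 were at or above the mark on FULA 1, 6 on urethane lung and 6 on saline lung, with summed linear levels of 30.1, 99.7 and 112.3. Of 9 measured monocyte and interstitial macrophage markers 2, 4 and 5 reached the mark on the arrays in that order, with sums of 30.7, 56.9 and 71.8, and of 9 alveolar macrophage markers 4, 6 and 5, with sums of 76.4, 131.6 and 171.0. The lung sums rest largely on single genes, such as Car4 among alveolar macrophage markers at 6.25 on urethane lung and 6.85 on saline lung. Car4 was at 1.94 on FULA 1, and without it the alveolar macrophage sum would be higher on FULA 1 than on either lung. The median of that list on FULA 1 was 1.94, just below the mark. The median level of the alveolar macrophage markers was 2.97 on urethane lung and 2.52 on saline lung, that of the neutrophil markers 3.05 and 3.11, and that of the monocyte and interstitial macrophage markers 2.24 and 3.26. Single markers went both ways in the lungs: S100a8 was at 4.29 on urethane lung and 5.26 on saline lung, whereas the neutrophil receptor gene Csf3r was at 4.26 and 3.49. On FULA 1, Mrc1, a macrophage receptor gene that other cells can also express, was at 5.24, against 2.97 on urethane lung and 2.28 on saline lung. Cidec was at 3.38 on FULA 1, 1.83 on urethane lung and 1.82 on saline lung, and Krt79 at 3.11, 3.01 and 2.97. Marco, a scavenger receptor gene of alveolar macrophages, was at 1.91 on FULA 1, below the mark. Of the 9 alveolar macrophage markers 2 were higher and 3 lower in FULA 1 than in saline lung by the 2-fold rule. Of all genes past the floor 22.6% were higher and 22% lower. The part of these cells in the differences was not tested.

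Markers of cells that may hold Il33 or its receptor differed as well. Of 8 alveolar type II markers 7 were at or above the mark on FULA 1 and 8 on each lung, but their summed level was 62.8 on FULA 1, 3924 on urethane lung and 3212 on saline lung, and Sftpc was at 2.21, 11.29 and 11.04. Il33 was thus higher in FULA 1 where the summed type II markers were lower. The sums for 6 endothelial markers were 22.3, 380.2 and 469.4 and those for 6 fibroblast markers 34.2, 346.7 and 320.9. Those for 6 alveolar type I markers were 244.9, 623.4 and 644.7. The FULA 1 sum was made mostly by Aqp5, at 7.77 on FULA 1, 5.49 on urethane lung and 5.28 on saline lung. Most of the list went the other way, such as Ager at 2.90, 8.25 and 8.10. By the 2-fold rule 1 was higher and 4 lower in FULA 1 than in saline lung, where 22.6% and 22% of genes past the floor were. Against urethane lung 1 was higher and 5 lower, where 22.1% and 19.5% were. The sums for 4 club cell markers were 16.4, 5521 and 5244. Pan-epithelial markers summed to 1384 on FULA 1, 123.8 on urethane lung and 107.2 on saline lung, a FULA 1 sum made mostly by Krt8. Krt18 and Cdh1 were also higher there, while Epcam and Cldn7 were lower. By the 2-fold rule 3 of the 5 were higher and 1 lower than in saline lung, where 22.6% and 22% of genes past the floor were. Against urethane lung 3 were higher and 2 lower, where 22.1% and 19.5% were. Of 8 mast cell and basophil markers 2 reached the mark on FULA 1 and 1 on each lung, which was Gata2 at 5.85 on urethane lung and 6.07 on saline lung. All others, such as Cpa3 at 1.65 and 1.27, lay below the mark in both lungs, so the list gives no clear signal of these cells there. Of 10 measured markers of T cells, NK cells and group 2 innate lymphoid cells 3, 7 and 6 reached it, with Rora at 2.74, 3.55 and 3.76 and Nkg7 at 1.85, 3.49 and 3.76. Of 5 measured B cell markers 1, 2 and 3 did, and of 5 general leukocyte markers 2, 5 and 5, with Coro1a at 2.58, 4.64 and 4.51. The part of these cells in the differences was not tested either.

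Other receptors and ligands of the family were mostly near background. Il1r1 belongs to a cluster of 6 adjacent receptor genes on chromosome 1, in the order Il1r2, Il1r1, Il1rl2, Il1rl1, Il18r1 and Il18rap, of which 5 were measured. Il18rap, a chain of the interleukin 18 receptor, was at 3.11 on FULA 1, 2.17 on urethane lung and 1.59 on saline lung. It was higher by 1.52 in FULA 1 than in saline lung, but by at least only 0.65 with the mark as the saline value. The decoy receptor gene Il1r2 was at 1.58, 1.57 and 1.63, below each mark, and Il18r1 at 2.56, 2.81 and 2.43. Sigirr, a receptor that dampens the signal, was at 2.57, 2.79 and 3.09, with no call. Of the 7 other receptors, 3 were past the floor in each comparison of FULA 1 and 2 between the lungs. Of the 7, 1 (Il18rap) was called between FULA 1 and saline lung, where 44.6% of genes past the floor were, and 0 in the remaining comparisons. Their median was 0.37 between urethane lung and saline lung, 0.12 between FULA 1 and saline lung and 0.01 between FULA 1 and urethane lung, against -0.07, 0.02 and 0.07 over all genes past the floor; with aligned medians those of FULA 1 were -0.04 against saline lung and -0.21 against urethane lung. Replacing each signal under the mark by the mark itself gave medians of 0.00 in all 3 comparisons, since 5, 4 and 4 of the 7 lay below the mark on both arrays. Of 6 other ligands and antagonists 2 were measured. Il1f10 was at 1.59 on FULA 1, 3.31 on urethane lung and 4.05 on saline lung, lower in FULA 1 by at least 1.35 than in urethane lung and by at least 2.09 than in saline lung. Il18bp, the secreted protein that binds interleukin 18, was at 2.74, 3.0005 and 2.81.

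Genes that carry the interleukin 1 signal were mostly above the mark in all samples, and few were called. Of 14 such genes 13 were measured. Of all genes 58.2% reached the mark on FULA 1, 48.9% on urethane lung and 49.5% on saline lung. Myd88, the adaptor, was at 3.68 on FULA 1, 4.52 on urethane lung and 4.52 on saline lung; its difference from either lung, -0.83, became positive with aligned medians. Between FULA 1 and saline lung 0 of the 13 were higher and 1 lower by the 2-fold rule, where 44.6% of genes past the floor were called. The median was -0.10. The gene called was Tollip, an inhibitor of the receptor complex, lower by 1.503, but at -0.24 and no longer called with aligned medians. Tab1, a partner of the kinase TAK1, was at 0.81 and Irak1 at 0.50. Between FULA 1 and urethane lung 1 was higher and 1 lower, with a median of -0.16, where 41.5% of genes past the floor were called. Tab1 was higher by 1.22 (0.87 after lowess, with no call), and Tollip was at -1.05, which became 0.10 with aligned medians. Aligned medians turned the list medians to 1.10 against saline lung and 1.36 against urethane lung, so the list has no settled direction in FULA 1. Between urethane lung and saline lung the ubiquitin-conjugating enzyme gene Ube2n was the gene called, lower by 1.30, where 4.58% of genes past the floor were called. The median was -0.16, with Irak1 at 0.37 and Tollip at -0.46.

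Genes of the inflammasome, which cleaves the Il1b product, were in part lower in FULA 1. Of 12 measured, 8 were past the floor in each comparison. In FULA 1, 0 were higher and 4 lower than in saline lung, where 22.6% and 22% of all genes past the floor were. Against urethane lung 0 were higher and 3 lower, where 22.1% and 19.5% were. Casp4, a sensor of intracellular endotoxin, was at 1.58 on FULA 1, 3.21 on urethane lung and 3.75 on saline lung, lower in FULA 1 by at least 1.24 than in urethane lung and by at least 1.79 than in saline lung. Pycard, the adaptor ASC, was at 2.60, 4.58 and 3.98. Both genes were above the mark in the lungs, and Pycard was lower in FULA 1 by 1.98 than in urethane lung and by 1.38 than in saline lung, the last at -0.42 and not called with aligned medians. The sensor gene Nlrp3 was lower by at least 0.97 than in saline lung and lost its call after lowess at -0.80, and Ninj1, which ruptures the membrane of dying cells, was at -1.16 there, a sign that turned with aligned medians. Casp1 itself was below the mark on all 3 arrays at 0.46, 1.62 and 1.58. The list medians were -0.81 against saline lung and -0.65 against urethane lung, but -0.04 and -0.06 once signals under the mark were replaced by it. Between urethane lung and saline lung 0 of the 12 passed the 2-fold rule, where 4.58% of genes past the floor did. The median was -0.04, from Ninj1 at -0.65 to Pycard at 0.60.

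Among target genes of interleukin 1 and Tnf, several chemokine genes, Ptgs2 and the NF-kB regulators Nfkbiz and Tnfaip3 were higher in FULA 1, while others were lower or not called. Of 20 measured, 17 were past the floor in the comparison of FULA 1 with saline lung. There 9 were higher and 2 lower in FULA 1, against background shares of 22.6% and 22% of genes past the floor. Against urethane lung 16 were past the floor, and 9 were higher and 2 lower, with shares of 22.1% and 19.5%. The list was chosen with earlier results of these arrays known, so its direction is a description. The neutrophil chemokine gene Cxcl5 was at 8.45 on FULA 1, 1.98 on urethane lung and 1.87 on saline lung, higher by at least 6.01 than in urethane lung and by at least 5.99 than in saline lung. Ptgs2, which encodes cyclooxygenase 2, was at 7.51, 3.37 and 3.89. Ccl2, a monocyte chemokine gene, was at 7.37, 2.89 and 3.85. These 3 genes stood above both lungs by at least 3.52.

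Cxcl1, another neutrophil chemokine gene, was at 4.38 on FULA 1 and below the mark in both lungs, higher by at least 1.94 than in urethane lung and by at least 1.92 than in saline lung. The NF-kB regulators Nfkbiz and Tnfaip3 were higher in FULA 1 than in saline lung by 1.79 and 1.47. Cxcl2 was higher by 1.40 (0.93 after lowess, with no call) and Ccl20 by at least 1.18. Saa3 was also counted as higher, but by at least only 0.08 with the mark as the saline value. The genes counted as lower than in saline lung were Csf3, which encodes a neutrophil growth factor, at -1.24, and the endothelial adhesion gene Sele, below the mark on both arrays. Against urethane lung they were Csf3 at -1.12 and Icam1 at -1.43, which became 0.28 with aligned medians. With aligned medians Csf3 was at -0.78 against saline lung and -0.79 against urethane lung, with no call. The NF-kB inhibitor gene Nfkbia, a common readout of the pathway, was at 4.54 on FULA 1, 4.93 on urethane lung and 4.99 on saline lung, with no call. Its differences of -0.45 from saline lung and -0.39 from urethane lung turned to 1.17 and 1.22 with aligned medians, so its direction is not settled. The list medians were 0.64 against saline lung and 0.67 against urethane lung, beside 0.02 and 0.07 over all genes past the floor. They became 0.04 and 0.05 once signals under the mark were replaced by it. With aligned medians they were 1.46 and 1.37, where 51.6% and 52.9% of all genes past the floor were called higher in FULA 1.

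**Figure D3:**
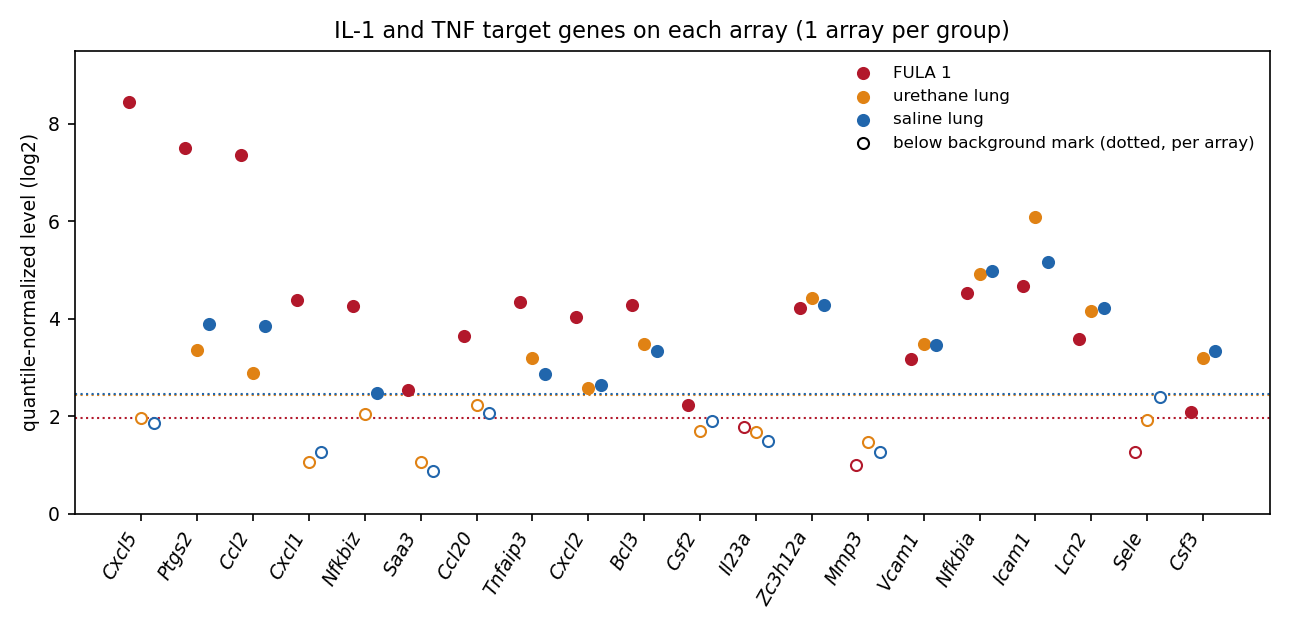
Quantile-normalized levels (log2) of 20 target genes of interleukin 1 and Tnf on FULA 1, urethane lung and saline lung, ordered by the difference of FULA 1 from saline lung; open points lie below the background mark of their array, drawn as a dotted line. Cxcl5, Ptgs2 and Ccl2 lie between 7.37 and 8.45 on FULA 1 and at or below 3.89 in the lungs.

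Between urethane lung and saline lung 0 of the 20 targets, 13 of them past the floor, passed the 2-fold rule, where 4.58% of genes past the floor did. The median of the targets was -0.02, or 0.03 with aligned medians. Icam1, the adhesion molecule of endothelium and epithelium, was at 6.10 on urethane lung and 5.17 on saline lung, a difference of 0.93, and Tnfaip3 differed by 0.33. Ccl2 was at 2.89 on urethane lung and 3.85 on saline lung, a difference of -0.96, and Ptgs2 differed by -0.52. The targets thus lay on both sides of 0, as Il1b and Tnf did. Of the 14 targets with a start window, 5 (Ccl20, Cxcl1, Cxcl2, Nfkbia and Tnfaip3) held a match to the NF-kB consensus that was also found before Il6 and Il1r1. The share over all start windows was 7.25%, but it is counted per window, whereas a target could have several windows. The 2 are therefore not directly comparable.

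On the receiving side of Tnf, 13 of 14 genes were measured, 12 of them past the floor in each comparison. The main receptor gene Tnfrsf1a was at 4.06 on FULA 1, 4.43 on urethane lung and 3.18 on saline lung, so urethane lung exceeded saline lung by 1.25. Of the 13 genes Tnfrsf1a alone was called in that comparison, where 4.58% of genes past the floor were. Fadd, an adaptor of death receptors, was higher there by at least only 0.16, and Ltb, a lymphocyte ligand gene of the Tnf family, was at -0.74, with Rhbdf2 at -0.49. The median was 0.20. FULA 1 exceeded saline lung by 1.06 in Adam17, the protease that releases Tnf from the cell surface, and by at least 0.63 in Fadd, and was lower by at least 1.82 in Ltb and by 1.53 in Cflar, an inhibitor of caspase 8; 2 genes were higher and 2 lower, against 44.6% of all genes called, with a median of 0.10, or 1.08 with aligned medians and -0.09 after lowess. With aligned medians Cflar was at -0.12 there and lost its call, and after lowess Adam17 was at 0.66 and lost its own. Against urethane lung 0 were higher and 3 lower in FULA 1, against 41.5% of all genes called, with a median of -0.20, or 0.76 with aligned medians. These were Cflar at -1.45, whose sign turned with aligned medians, Traf1 at -1.14 (-0.30 with aligned medians) and Ltb at -1.14 (-0.98 with aligned medians), while Rhbdf2 was at 0.88 and Adam17 at 0.86.

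In the interleukin 6 family 12 of 13 genes were measured, 9 of them past the floor in each comparison. The receptor chains were above the mark while Il6 was below it. Il6ra was at 2.85 on FULA 1, 3.13 on urethane lung and 3.09 on saline lung, and Il6st, the shared chain gp130, at 4.62, 5.00 and 5.27. Clcf1, another ligand of the family, was at 4.62, 2.10 and 2.996, higher in FULA 1 by 1.63 than in saline lung and by at least 2.18 than in urethane lung. Lif was higher by 0.95 (at least 0.39) than in saline lung. Osmr, the oncostatin M receptor gene, was at 2.71, 4.79 and 4.47, lower in FULA 1 by 2.08 than in urethane lung and by 1.76 than in saline lung. Stat3, the transcription factor of the pathway, was lower by 1.54 than in saline lung; its difference from urethane lung, -1.17, turned with aligned medians. Lifr differed from urethane lung by -1.12, but by -0.015 with aligned medians, and its difference from saline lung, -1.01, turned. Aligned medians also ended the calls against saline lung of Osmr, at -0.74, and Stat3, at -0.44. Jak2 was higher by 1.65 than in urethane lung. By the 2-fold rule 1 of the 12 was higher and 3 lower than in saline lung (median -0.17), where 22.6% and 22% of all genes past the floor were, and 2 were higher and 3 lower than in urethane lung (median -0.23), where 22.1% and 19.5% were; with aligned medians these medians were 0.44 and 0.58. Between the lungs 0 were called, where 4.58% of genes past the floor were, and the median was -0.12. Genes above the mark on either array ran from Clcf1 at -0.89 (lower by at least 0.55) and Jak2 at -0.84 to Osmr at 0.32.

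**Figure D4:**
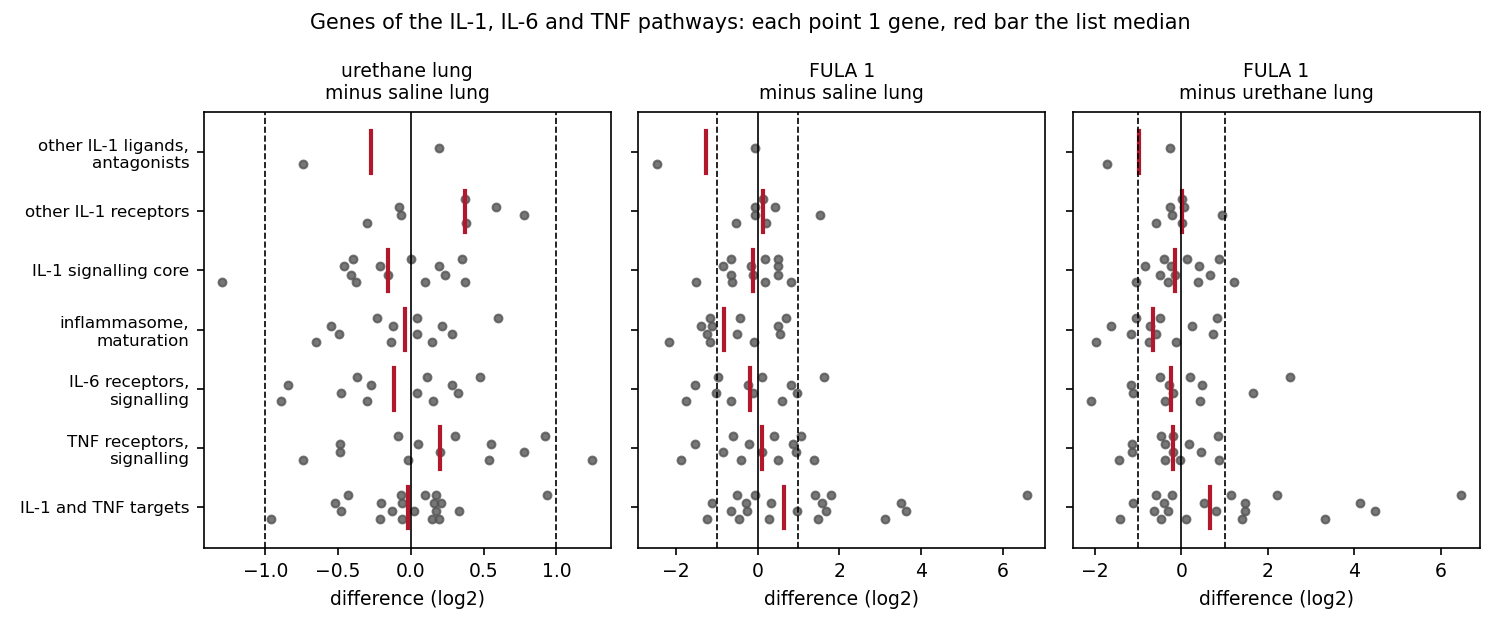
Differences (log2) of the measured genes of 7 lists of the interleukin 1, interleukin 6 and Tnf pathways in the 3 comparisons; each point is 1 gene, the red bar is the list median and dashed lines mark 2-fold, and the horizontal scale of the lung comparison is narrower. The target list reaches 6.58 in FULA 1 against saline lung, where its median is 0.64, whereas its median between the lungs is -0.02.

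Genes whose levels were most like those of a member were sought by the smallest value of the largest difference over the 3 arrays, a likeness that rests on 3 values per gene. For Il33 these were Vps35, Iqgap1 and Washc5, the last within 0.15 on each array, and 13 genes lay within 0.25. For Il1r1 they were Rin1, Dcaf1 and Angptl4, with 15 genes within 0.25. Il1b stood more apart, with 0 genes within 0.25, and the nearest were Mir335 at 0.28, Fbln5 at 0.34 and Mxra7 at 0.38. For Tnf the nearest were Stra6l, Olfr527 and Mymx, with 109 genes within 0.25, for Il1a Zfp1, Phf19 and Mrm2, with 140, and for Il1rn Filip1l, Thg1l and Smug1, with 159. Of these, Olfr527 is an olfactory receptor gene, of the class that sets the background mark.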

How the data were processed

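The deposited values are log2 signals of 41345 probe sets on each of 3 arrays, which the authors made with RMA (background correction, normalization and summary over probes), per the submitters' processing notes, in GeneSpring GX 12.5, per the design text; the sources used here do not say which arrays were normalized together. Columns of other samples numbered 0. Since the columns were on different scales, each was given the mean of the 3 sorted columns by rank (quantile normalization), ties at their mean rank. The step compresses or stretches low values, so percentile ranks are given too. The platform annotation gave 23521 probe sets a single symbol; 1814 with several symbols were set aside, and 16010 had no name here. The RefSeq table of GRCm38.p6 updated 23328 of the symbols by Entrez identifier. Probe sets were averaged by gene, giving 22180 genes.

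A gene was called at a difference of at least 2-fold if the higher value reached the floor, which is the median of all gene values over the arrays. No test was possible with 1 array per group, and this number limits the precision. The members, the 7 gene lists (79 of 86 genes measured), the 13 marker lists (91 of 95) and the background mark were chosen with earlier results of these data known. Named genes were the members, the 2 highest and 2 lowest detected genes of each list per comparison, the brightest markers, the 3 nearest genes per member, and Actb, Ptprc and Epcam; some were left out for room, and others are named because they were called or serve as examples, chosen after their values were seen. Among the other settings, aligned medians means a constant added per array so that all medians match. The sign of planted differences was checked on simulated data, only in probe sets above the floor, so the check does not cover values near background. Analyses used Python 3.11.15, pandas 2.3.3, numpy 2.4.6, scipy 1.17.1, statsmodels 0.14.6 and matplotlib 3.10.9.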

Additional observations from a re-analysis of the deposited data

How the results depend on the processing

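Results were recomputed under 10 other settings. With the values as deposited, 1 member was called between the lungs (1 higher), 9 between FULA 1 and saline lung (9 higher, 0 lower) and 8 between FULA 1 and urethane lung (8 higher, 0 lower); there the differences of Il1b were 2.58 from saline lung and 0.47 from urethane lung, those of Tnf 3.68 and 2.89, and the median of the other ligands and antagonists between FULA 1 and saline lung became 4.10, since the columns differ in scale. With the quantiles of FULA 1 as the target, and likewise at 1.5-fold, 2 members (Il1b and Il1r1) were called between the lungs, both higher. With array medians aligned, after lowess (span 0.3) and with the floor at the 75th percentile, 1 member was lower in FULA 1 than in urethane lung, since Tnf dropped out. At 4-fold, 2 members were called between FULA 1 and saline lung (1 higher, 1 lower) and 1 between FULA 1 and urethane lung (0 higher, 1 lower). The 8 called differences of members gave 80 values over these settings, of which 68 kept direction and call, 8 kept direction only and 4 turned. Of 210 list medians over these settings 174 kept their place within or past the threshold. Another 19 passed it in the same direction and 14 in the opposite direction, 2 fell below it, and 1, that given above, turned. Only a median past 2-fold under the main setting could count as turned, so that count says little about stability. Of 210 counts of called list genes 144 stayed within 1.5 times.

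The background moved too. Against 409 higher and 164 lower between the lungs, the deposited values gave 5180 and 0, the common median 215 and 203, the FULA 1 quantiles 979 and 897, lowess 233 and 35, 1.5-fold 1373 and 1340, 4-fold 17 and 1, the higher floor 213 and 79, and values held at the mark 254 and 95. Against 3073 and 2994 between FULA 1 and saline lung, the counts were 21703 and 20, 7058 and 1785, 3879 and 4072, 2142 and 3010, 4601 and 4579, 852 and 767, 2213 and 1720, and 2401 and 2478 in that order of settings. Against 2930 and 2581 between FULA 1 and urethane lung, they were 21603 and 22, 7154 and 1558, 3734 and 3640, 2160 and 2743, 4512 and 4102, 774 and 678, 2111 and 1532, and 2297 and 2159. With 1 array per group no paired or leave-one-out setting could be run. Low signal limits both lungs most, where up to 1277 probe sets share a value.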
